A study of Mus musculus with 6 samples.

Results

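The nuclear genes that encode respiratory complexes II, III, IV and V were compared between locus coeruleus punches of 5xFAD and wild-type (WT) mice. Members were the rows of the deposited table whose gene identifier maps to Sdha, Sdhb, Sdhc or Sdhd (complex II), to a symbol that starts with Uqcr (complex III), to Cox followed by a digit from 4 to 8 (complex IV), or to Atp5 (complex V). Symbols that mark a pseudogene (-ps) were left out, 7 of 56 matching rows. This gave 49 members of 56923 rows, 4 in complex II, 8 in complex III, 19 in complex IV and 18 in complex V. The symbols are those of the gene names used here, so the Atp5g genes appear under that older name and not as Atp5mc.

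Bulk poly-A RNA sequencing was carried out on 3 5xFAD libraries (64, 65 and 79) and 3 WT libraries (62, 63 and 66). 5xFAD mice express a human APP transgene bearing mutations of familial Alzheimer's disease, driven by mouse Thy1 regulatory sequence, which is active mainly in neurons; WT mice do not carry it. The labels give no age, sex, strain or batch. Each library's column name ends in its own running tag, WT before 5xFAD, and the meaning of the tag is not stated. The labels also do not say that each library is a separate animal. The p-values thus weigh a group difference against the spread between these libraries, which may be partly technical. A punch mixes neurons of the locus coeruleus with glia, vessels and neighbouring tissue, so that fewer cells of a type and less RNA per cell cannot be told apart.

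Succinate dehydrogenase (complex II) feeds electrons from succinate to ubiquinone, the cytochrome bc1 complex (complex III) passes them on to cytochrome c, cytochrome c oxidase (complex IV) hands them to oxygen, and ATP synthase (complex V) uses the proton gradient so made to form ATP. Complex II is encoded wholly in the nucleus, while complexes III, IV and V combine nuclear subunits with a few made inside the mitochondrion. The noradrenergic neurons of the locus coeruleus fire tonically and send long, branched axons through the brain, which makes them heavy users of oxidative phosphorylation.

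Promoters of respiratory genes often hold a site for the transcription factor NRF1, a palindrome-like GC-rich motif, or a site for ETS-family factors such as GABP. RefSeq windows (build GRCm38.p6) of 300 bases, from 250 before to 50 after the gene's start, were found for 34 members. For 14 member symbols, among them Cox4i1, Cox6c, Sdhc and Atp5a1, no window was found. The NRF1 motif, written as GCGCA and GCGC with any 1 base between them and searched on both strands, was in the windows of 10 of the 34 members (29.4%), against 5.19% of 27025 genes with a window. These members were Sdha and Sdhd of complex II, Uqcrc1 of complex III, Cox6a1 of complex IV, and Atp5c1, Atp5g2, Atp5g3, Atp5h, Atp5k and Atp5o of complex V. The ETS motif CCGGAAG, searched on both strands, was in 12 of 34 (35.3%), against 9.93% of all genes with a window. The genes with a window were not limited to expressed genes or matched to the members in base content. Sdhd, Cox6a1, Atp5h and Atp5k held both motifs, 18 members held either, and no match of one motif overlapped a match of the other. A match is a run of letters, not a shown binding site. The stretches below carry the NRF1 motif (capitals) upstream of the start of members described further on; all lie on the minus strand of their chromosome, and each is written 5′ to 3′ in the direction of transcription.
Sdha, chr13:74350271-74350310: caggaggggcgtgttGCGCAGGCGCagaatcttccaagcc
Sdha, chr13:74350314-74350353: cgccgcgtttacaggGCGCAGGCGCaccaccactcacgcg
Sdhd, chr9:50603904-50603943: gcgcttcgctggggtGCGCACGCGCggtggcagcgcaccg
Cox6a1, chr5:115349051-115349090: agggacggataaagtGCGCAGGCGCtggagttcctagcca
Cox6a1, chr5:115349096-115349135: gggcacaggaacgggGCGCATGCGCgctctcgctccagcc
Atp5c1, chr2:10080433-10080464: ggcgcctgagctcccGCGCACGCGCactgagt
Atp5g2, chr15:102671065-102671104: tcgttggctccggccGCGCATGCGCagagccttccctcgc
Atp5h, chr11:115420036-115420075: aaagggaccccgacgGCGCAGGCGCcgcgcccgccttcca
Atp5k, chr5:108434425-108434464: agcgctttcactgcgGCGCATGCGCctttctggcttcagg
Sdha holds 1 more match nearer its start, so its window has 3 in all, and both matches of Cox6a1 are shown. The 10 members with the motif had a median log2 fold change of -0.067, against -0.080 in the 23 tested members with a window and no match. These medians are a description, and their difference was not tested.

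The libraries held 15158712, 16483738 and 17774759 reads assigned to genes in 5xFAD, and 19343185, 20079349 and 17362733 in WT. Thy1, whose regulatory sequence drives transgene expression, had 21875, 16885 and 22211 normalized counts in 5xFAD, against 8755, 7976 and 9089.6 in WT, with no overlap between the groups. Its log2 fold change was 1.23 (limma adjusted p = 0.0456), and it was the 1 gene of 16411 tested that passed the threshold of 0.05. That call was lost when any 1 library other than 5xFAD 65 was left out (limma adjusted p from 0.14 to 0.40), and with no floor or no moderation. Dbh, the enzyme that makes noradrenaline and the defining marker of these neurons, had 1879, 2895 and 2089.5 normalized counts in 5xFAD, against 2187, 2492 and 1281 in WT, with overlapping groups, and all 9 noradrenergic markers passed the expression floor. The summed level of 8 cerebellar neuron markers was 10399, 18329 and 6281 in 5xFAD and 3620, 14246 and 4579 in WT, so that 5xFAD 65 and WT 63 each stood highest in their group. The 7 oligodendrocyte markers summed to 277819, 202916 and 316627 in 5xFAD and to 254704, 210043 and 265984 in WT, with the same 2 libraries lowest.

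Normalized counts, which are read counts divided by 1 size factor per library, are given below in the order 64, 65 and 79 for 5xFAD and 62, 63 and 66 for WT. A log2 fold change is the 5xFAD mean minus the WT mean of log2(normalized count + 1), for 3 libraries each, and comes from limma fitted over all 16411 genes that reached a normalized count of 10 in at least 3 of the 6 libraries. Of the 49 members, 44 reached that floor. The 5 others were Cox6a2 and Cox7b2, which were read at a few counts, and Cox8c, Cox6c2 and a second entry named Atp5o (ENSMUSG00000116933.2), which were at 0 in all 6 libraries. A count of 0 allows up to 3 reads of the 15158712 to 20079349 in a library, for counting error only. Cox6c2 is annotated as a processed pseudogene in GENCODE M21 although its symbol carries no -ps.

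No member passed the test between 5xFAD and WT, while most had slightly lower values in 5xFAD. Fitted values were below 0 for 40 of the 44 members, where 49.8% of all tested genes lay below 0. The median log2 fold change of the members was -0.076, a level 5.13% lower in 5xFAD, against a median of 0.00053 over all tested genes. The lower values reached 3 of 4 members of complex II (median -0.041), 8 of 8 of complex III (-0.066), 12 of 15 of complex IV (-0.080) and 17 of 17 of complex V (-0.088). The 4 members with a fitted value above 0 were Sdhd, Cox4i2, Cox6b2 and Cox8b, of which Cox4i2 turned below 0 under TMM scaling. Over the scalings tried, 39 to 41 members lay below 0, and the median of the members was -0.079 with TMM and -0.072 with quantile normalization. Among the 40 members with a mean of at least 300 normalized counts, 39 lay below 0, with Sdhd as the exception. By library, the members' share of all assigned reads was 0.721, 0.697 and 0.722% in 5xFAD and 0.741, 0.714 and 0.772% in WT, and these shares overlapped between the groups.

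None of the 44 members was called by limma at an adjusted p under 0.05, where 0.00609% of all tested genes were called in either direction and 0.0% as lower; the members' adjusted p-values were 0.9995 or above. On the whole reads, edgeR and DESeq2 also called 0 members. At an unadjusted p under 0.05 stood 1 member, Cox7b, against 2.32% of all genes in either direction and 1.05% as lower; edgeR placed 2 there, Cox5b and Cox7b (2.30% of all genes), and DESeq2 1 (0.926% of all genes). In the authors' deposited table, 42 of 46 members with a p had lower values in 5xFAD once its sign was turned, 1 was at an unadjusted p under 0.05, beside 0.731% of all its genes, and 0 at an adjusted p under 0.05. The 3 5xFAD libraries lay below all 3 WT libraries for 4 members, Uqcrq, Cox5b, Cox7b and Atp5d, or 9.09% of the members against 3.7% of all tested genes. They lay above all WT libraries for 0 members, against 3.72% of all genes. The median SD of the members within groups was 0.077 on the log2 scale, against 0.14 over all tested genes, and the median half-width of their 95% interval was 0.142, against 0.254. At a mean of at least 300 normalized counts the gap was smaller, with a median SD of 0.075 for the members against 0.087 for all such genes and a half-width of 0.141 against 0.168. That interval excluded a 1.5-fold difference in either direction for 40 of the 44 members (71.4% of all genes) and a 1.25-fold difference for 37 (47.2% of all genes). The 4 whose interval reached past 1.5-fold were the low isoforms Cox4i2, Cox6b2, Cox7a1 and Cox8b.

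**Figure D1:**
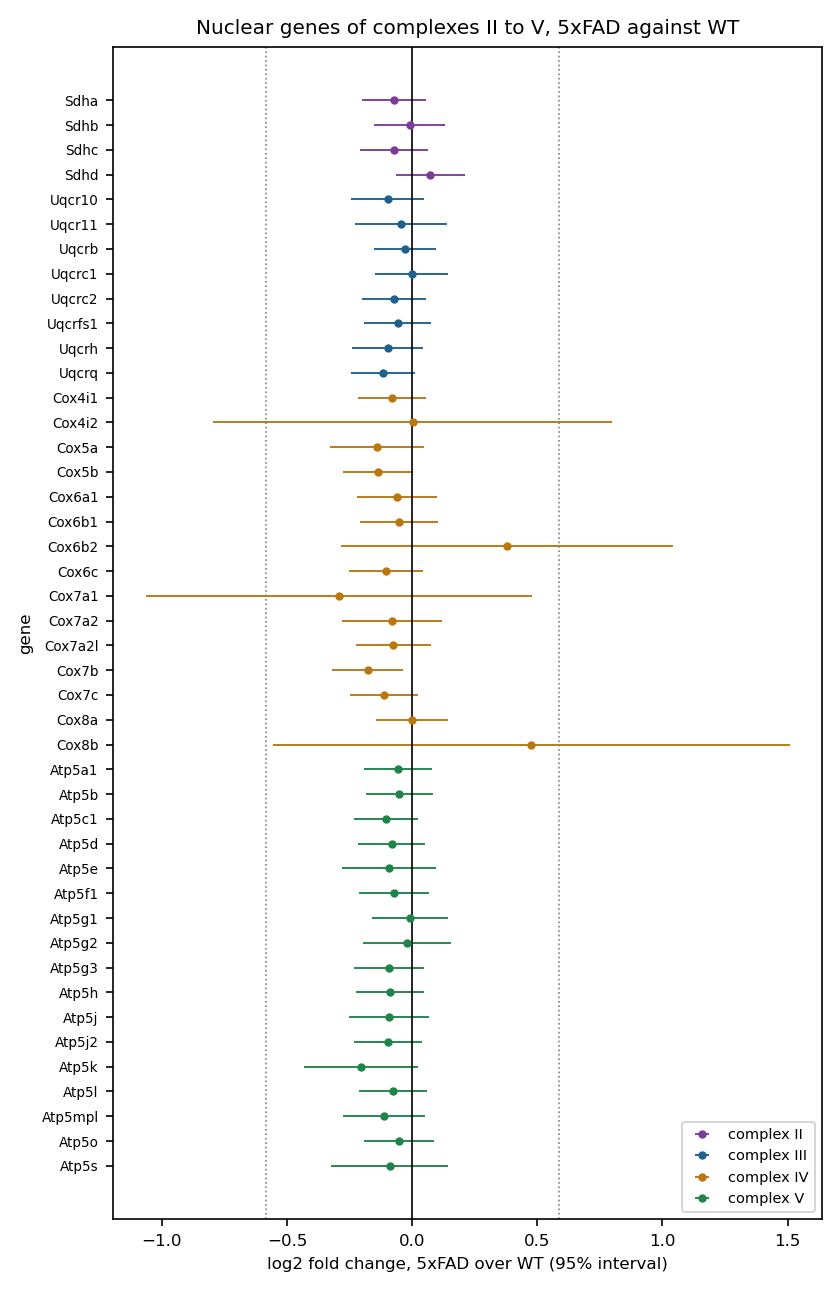
Log2 fold change, 5xFAD over WT, of the 44 tested members (rows, coloured by complex), with the 95% interval of the limma fit over 3 libraries in each group; dotted lines mark a 1.5-fold difference. Of the 44 points, 40 lie below 0, Cox7b is the only member whose interval does not reach 0, and the intervals of Cox4i2, Cox6b2, Cox7a1 and Cox8b are the widest.

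In complex II, 3 of the 4 members had fitted values below 0 and Sdhd lay above 0. Sdha, the flavoprotein that oxidises succinate, had 9076, 8901 and 9509 normalized counts in 5xFAD, against 9779, 9109.7 and 10053 in WT; its log2 fold change was -0.074 (SE 0.057). Sdhc, which with Sdhd anchors the enzyme in the membrane and binds ubiquinone, had 1618, 1487 and 1532 normalized counts in 5xFAD, against 1663, 1537 and 1675 in WT, at a log2 fold change of -0.072 (SE 0.060). For both genes 5xFAD 65 was the lowest and WT 66 the highest library, and the groups overlapped. Sdhb, the iron-sulfur subunit, had 1426, 1347 and 1484 normalized counts in 5xFAD, against 1392, 1379.8 and 1514 in WT, with WT 66 highest and a log2 fold change of -0.0098 (SE 0.063). Sdhd, the other membrane anchor, had 1100.1, 1129 and 1199 normalized counts in 5xFAD, against 1111, 1036 and 1114 in WT. Here 5xFAD 79 was the highest and WT 63 the lowest library, the log2 fold change was 0.072 (SE 0.062), and the groups overlapped, since 5xFAD 64 lay below WT 62 and WT 66.

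All 8 members of complex III had fitted values below 0, from -0.12 for Uqcrq to -0.0022 for Uqcrc1, a value that turned to 0.015 under quantile normalization. Uqcrq, a small subunit that binds ubiquinone, had 960.3, 979 and 1012 normalized counts in 5xFAD, against 1055, 1043 and 1105 in WT. All 5xFAD libraries lay below all WT libraries, and the fitted level was 7.84% lower (log2 fold change -0.12, SE 0.057). Uqcrh, the acidic hinge protein that helps cytochrome c1 meet cytochrome c, had 3055, 2921 and 3262 normalized counts in 5xFAD, against 3455, 3096 and 3330.4 in WT; only 5xFAD 79 reached above WT 63, and the log2 fold change was -0.097 (SE 0.063). Uqcr10, a small accessory subunit, had 1100.1, 984 and 1089 normalized counts in 5xFAD, against 1173, 1127 and 1093 in WT; 5xFAD 65 stood lowest, 5xFAD 64 lay above WT 66, and the log2 fold change was -0.098 (SE 0.065).

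The core proteins Uqcrc1 and Uqcrc2 form the part of complex III that reaches into the matrix. Uqcrc2 had 3588, 3368 and 3545 normalized counts in 5xFAD, against 3732, 3480.4 and 3844 in WT. Uqcrc1 had 3752, 3632 and 3931 normalized counts in 5xFAD, against 3895, 3475 and 3976 in WT. For both genes WT 66 was the highest library, WT 63 lay among or below the 5xFAD libraries, and the groups overlapped. The log2 fold changes were -0.074 (SE 0.057) for Uqcrc2 and -0.0022 (SE 0.065) for Uqcrc1. The Rieske iron-sulfur protein Uqcrfs1 and the small subunits Uqcr11 and Uqcrb had log2 fold changes of -0.058 (SE 0.060), -0.046 (SE 0.082) and -0.029 (SE 0.055).

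Complex IV held the member with the smallest p. Cox7b, a small membrane-spanning subunit, had 2382, 2227 and 2408 normalized counts in 5xFAD, against 2710.5, 2460.2 and 2778 in WT. The highest 5xFAD library was below the lowest WT library, and the mean was 2339 ± 97.7 in 5xFAD and 2649.6 ± 167 in WT (SD, n = 3 each). The log2 fold change was -0.18 (SE 0.063), 11.6% lower in 5xFAD, with a limma p of 0.019 before adjustment and an adjusted p of 0.9995. In the authors' deposited table its log2 fold change, turned to 5xFAD over WT, was -0.18 with p = 0.022. Cox5b, the zinc-binding subunit on the matrix side, had 2173, 2033 and 2198 normalized counts in 5xFAD, against 2368, 2199 and 2481 in WT; the groups did not overlap, though 5xFAD 79 and WT 63 were within about 1 count of each other, and the log2 fold change was -0.14 (SE 0.062). Cox5a, its partner on the matrix side, had 1583, 1333 and 1496 normalized counts in 5xFAD, against 1696, 1462 and 1707 in WT, with 5xFAD 64 and 5xFAD 79 above WT 63 and a log2 fold change of -0.14 (SE 0.083).

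Further subunits of complex IV had smaller differences, and their groups overlapped. Cox7c had 3231, 2927 and 3247 normalized counts in 5xFAD, against 3502, 3243 and 3412 in WT, with 5xFAD 65 lowest and 5xFAD 79 just above WT 63, and a log2 fold change of -0.11 (SE 0.060). Cox6c had 3739, 3292 and 3377 normalized counts in 5xFAD, against 3733, 3531 and 3924 in WT, where 5xFAD 64 lay above WT 62 and WT 63, and a log2 fold change of -0.10 (SE 0.066). Both are small membrane subunits on the outside of the catalytic core.

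Several complex IV subunits exist as a widely used form and a second form made in muscle, testis or other tissues, and per transcript length the widely used form was the more abundant one in both groups for each of the 5 subunits below. Cox4i1, the general form of the largest nuclear subunit, had 6931, 6445 and 6925 normalized counts in 5xFAD, against 7139.7, 6737 and 7606 in WT (log2 fold change -0.081, SE 0.061), while Cox4i2, a form of lung and of mural cells, had 17.3, 11.4 and 17 normalized counts in 5xFAD, against 13.9, 11.2 and 21.4 in WT. The fitted value of Cox4i2 was 0.0027 with a 95% interval from -0.79 to 0.80, and it lay just below 0 with a pseudocount of 5, TMM scaling, edgeR and DESeq2. Cox6a1 had 1501, 1359 and 1462 normalized counts in 5xFAD, against 1506, 1384 and 1619 in WT (log2 fold change -0.060, SE 0.071), and the muscle form Cox6a2 had 5.78, 3.12 and 5.00 normalized counts in 5xFAD, against 5.57, 5.16 and 1.02 in WT, under the floor. Cox6b1, which sits between the monomers of the enzyme, had 2989.5, 2847 and 3222 normalized counts in 5xFAD, against 3266, 2881 and 3246 in WT (log2 fold change -0.052, SE 0.069). Its testis form Cox6b2 had 26.6, 23.9 and 34 normalized counts in 5xFAD, against 16.7, 29.2 and 19.4 in WT; 5xFAD 79 was the highest, WT 62 the lowest, and the groups overlapped at a log2 fold change of 0.38 (SE 0.30). Its 95% interval ran from -0.28 to 1.04.

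Cox7a2, the general form of that subunit, had 1632, 1418 and 1734 normalized counts in 5xFAD, against 1674, 1538 and 1839 in WT (log2 fold change -0.080, SE 0.089). The muscle form Cox7a1 had 33.5, 13.5 and 27 normalized counts in 5xFAD, against 31.6, 24.1 and 30.6 in WT, and its log2 fold change of -0.29 (SE 0.34) rested on 5xFAD 65, since without that library it was 0.072. Cox7a2l, a related protein that joins complexes III and IV into supercomplexes, had 2342, 2189 and 2347 normalized counts in 5xFAD, against 2467, 2219 and 2572 in WT (log2 fold change -0.075, SE 0.066). Cox8a had 1316, 1328 and 1356 normalized counts in 5xFAD, against 1409.6, 1232 and 1372 in WT, with all 5xFAD libraries inside the WT range and a log2 fold change of -0.0026 (SE 0.064). Its muscle and brown-fat form Cox8b had 11.6, 11.4 and 15 normalized counts in 5xFAD, against 13, 12 and 4.08 in WT, where WT 66 stood alone at the bottom, and without WT 66 the log2 fold change of 0.48 (SE 0.46) was 0.0060. The testis form Cox7b2 had 6.93, 3.12 and 1.00 normalized counts in 5xFAD, against 5.57, 2.58 and 8.17 in WT, and Cox8c was at 0 in all libraries.

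The balance between the forms was read as the log2 ratio of both genes within a library, for 8 pairs of which 7 could be tested. The ratio is of normalized counts, not corrected for length. Cox4i2 to Cox4i1 averaged -8.72 ± 0.26 in 5xFAD and -8.81 ± 0.36 in WT. Cox6b2 to Cox6b1 averaged -6.71 ± 0.16 in 5xFAD and -7.14 ± 0.50 in WT, and Cox8b to Cox8a averaged -6.62 ± 0.19 in 5xFAD and -7.10 ± 0.85 in WT. Both of these differences were positive, with overlapping groups. Cox7a1 to Cox7a2 averaged -6.04 ± 0.53 in 5xFAD and -5.83 ± 0.13 in WT, and Cox7a2l to Cox7a2 0.53 ± 0.094 in 5xFAD and 0.52 ± 0.038 in WT. Of the c-subunit genes of complex V, Atp5g1 to Atp5g2 averaged 1.45 ± 0.12 in 5xFAD and 1.44 ± 0.052 in WT, and Atp5g3 to Atp5g2 2.18 ± 0.079 in 5xFAD and 2.25 ± 0.021 in WT. Two-sided exact permutation tests over the libraries gave p from 0.3 to 1, all 1 after adjustment over the 7 pairs, where 3 against 3 libraries cannot go below 0.1. Cox6a2 to Cox6a1 was not tested, as Cox6a2 was under the floor in all libraries.

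All 17 tested members of complex V had fitted values below 0. In the catalytic head, Atp5b, the beta subunit that makes ATP, had 20199.7, 19171 and 20626 normalized counts in 5xFAD, against 21143, 19475 and 21631 in WT (log2 fold change -0.052, SE 0.060), and Atp5a1, the alpha subunit, had 15264, 14495 and 15342 normalized counts in 5xFAD, against 15864, 14621 and 16462 in WT (log2 fold change -0.057, SE 0.060). Both genes were lowest in 5xFAD 65 and highest in WT 66, and WT 63 lay below 5xFAD 64 and 5xFAD 79. In the rotating central stalk, Atp5c1, the gamma subunit, had 3633, 3397 and 3502 normalized counts in 5xFAD, against 3889, 3557 and 3888 in WT; only 5xFAD 64 reached above WT 63, and the log2 fold change was -0.10 (SE 0.057). Atp5d, the delta subunit beside it, had 1600.5, 1451 and 1599 normalized counts in 5xFAD, against 1669.6, 1601 and 1648 in WT, so that the groups did not overlap, though 5xFAD 64 and WT 63 were within 1 count of each other, at a log2 fold change of -0.082 (SE 0.059). For Atp5e, the epsilon subunit, the fitted difference was -0.092 (SE 0.084).

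In the peripheral stalk, which holds the head still, Atp5f1 (subunit b) had 4235, 3960.0 and 4495 normalized counts in 5xFAD, against 4573, 4243 and 4517 in WT. Its groups overlapped, with a fitted difference of -0.072 (SE 0.062). The other stalk genes Atp5h (subunit d), Atp5j (coupling factor F6) and Atp5o (the oligomycin sensitivity protein) had log2 fold changes of -0.088 (SE 0.061), -0.093 (SE 0.072) and -0.053 (SE 0.062).

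The c ring in the membrane, which turns as protons pass, is built from 1 mature protein made by 3 genes. Atp5g1 had 2301, 2249 and 2516 normalized counts in 5xFAD, against 2395, 2199 and 2511 in WT, at a log2 fold change of -0.0072 (SE 0.068). Atp5g2 had 928, 782 and 875 normalized counts in 5xFAD, against 851, 839 and 928 in WT, at a log2 fold change of -0.020 (SE 0.078). For both genes the 5xFAD libraries covered most of the WT range. Atp5g3 had 3978, 3739.5 and 3993 normalized counts in 5xFAD, against 4027, 3969.9 and 4508 in WT, with WT 66 well above the other 5 libraries and a log2 fold change of -0.093 (SE 0.063).

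Among the small membrane subunits that help dimers of the enzyme form, Atp5k (subunit e) had 455, 409 and 483 normalized counts in 5xFAD, against 452, 545 and 561 in WT. WT 62 lay among the 5xFAD libraries, while WT 63 and WT 66 stood above all of them, and the log2 fold change of -0.21 (SE 0.10) was the lowest in complex V. Atp5j2 (subunit f) had 2039.6, 1986 and 2082 normalized counts in 5xFAD, against 2307, 2035 and 2194 in WT, at a log2 fold change of -0.096 (SE 0.060), and only WT 63 lay within the 5xFAD range. Atp5mpl, a small proteolipid bound to the membrane part, had 1434, 1219 and 1402 normalized counts in 5xFAD, against 1462, 1388 and 1523 in WT; 5xFAD 65 was the lowest library, and the log2 fold change was -0.11 (SE 0.074). For Atp5l (subunit g) the fitted difference was -0.076 (SE 0.061). Atp5s, which enters by its symbol but is not a structural subunit of the enzyme, had a fitted difference of -0.089 (SE 0.10). Many Cox, Atp5 and Uqcr genes have processed pseudogenes elsewhere in the genome, and no source used here gives the counting strand, so the split of reads between such copies is uncertain.

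**Figure D2:**
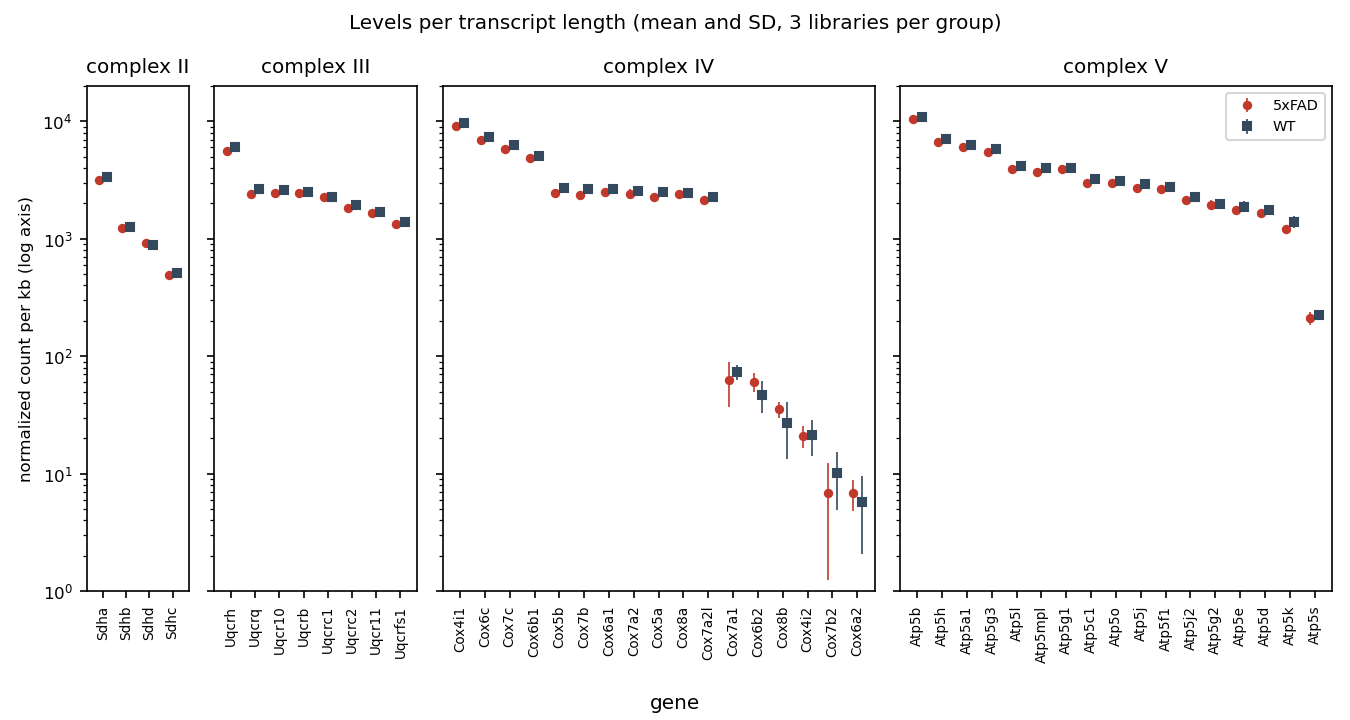
Mean normalized count per kb of transcript (log axis) with SD over 3 libraries in each group, for the 46 members above 0, in 4 panels by complex and sorted by the WT mean (red circles 5xFAD, dark squares WT). Atp5b is highest at 10438 in 5xFAD and 10830 in WT, and the alternative forms of complex IV (Cox7a1, Cox6b2, Cox8b, Cox4i2, Cox7b2 and Cox6a2) lie at 73.2 or lower in both groups.

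Per transcript length, most members were abundant, while the second forms of complex IV were not. The length was that of the shortest principal transcript in GENCODE M21, an annotation of another build than the authors' mm39. Over the tested members the median level was 2426 normalized counts per kb in 5xFAD and 2580 in WT, where all tested genes with a length had a median of 117 in 5xFAD and 116 in WT. The highest were Atp5b, with 10438 ± 391 per kb in 5xFAD and 10830 ± 590 in WT, and Cox4i1, with 9084 ± 374 in 5xFAD and 9612 ± 584 in WT (SD, n = 3 each). After these came Cox6c at 6898 ± 472 in 5xFAD and 7414 ± 390 in WT, Atp5h at 6709 ± 116 in 5xFAD and 7144 ± 493 in WT, and Atp5a1 at 6084 ± 189 in 5xFAD and 6333 ± 380 in WT. Cox6c and Atp5h did not differ from each other beyond these SDs, and their place above Atp5a1 holds only for the shortest transcript: on the longest one Cox6c had 4701 in 5xFAD and 5053 in WT, and Atp5h 4781 in 5xFAD and 5091 in WT. The order within complex II ran from Sdha (3159 in 5xFAD, 3327 in WT) over Sdhb (1242 in 5xFAD, 1251 in WT) and Sdhd (928 in 5xFAD, 883 in WT) to Sdhc (487 in 5xFAD, 513 in WT), steps that were all larger than the SDs. In complex III Uqcrh stood apart at 5630 per kb in 5xFAD and 6022 in WT, while Uqcrq, Uqcr10, Uqcrb and Uqcrc1 lay within 2282 to 2463 in 5xFAD and 2288 to 2635 in WT. Some principal transcripts differ widely in length, so that Atp5g1 would have 499.6 per kb in 5xFAD and 502 in WT on its longest one, and Uqcrq 647 in 5xFAD and 702 in WT.

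**Figure D3:**
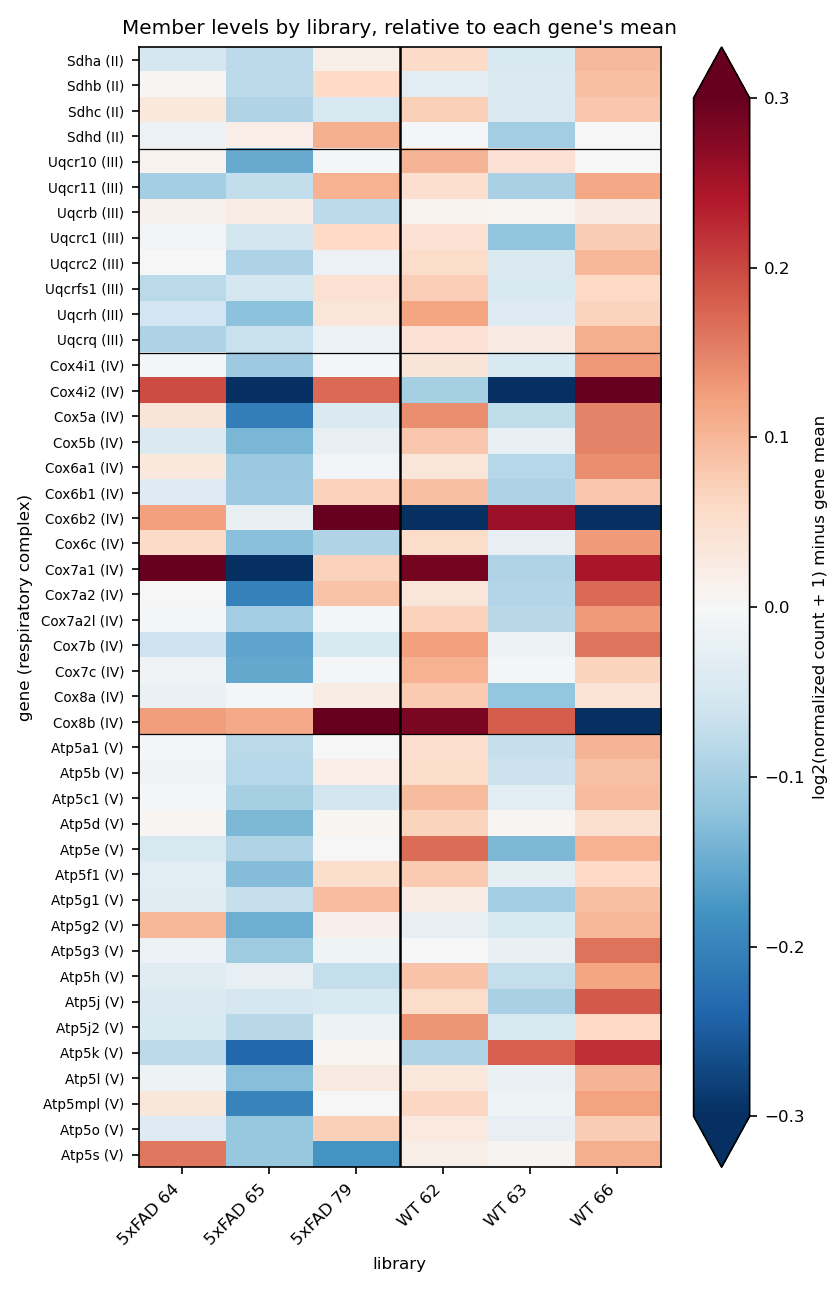
Log2(normalized count + 1) of each tested member (rows, complex in brackets) in each library (columns, 5xFAD left of the line and WT right of it), as the difference from the gene's mean over the 6 libraries, with colours cut at 0.3 either way. The columns of 5xFAD 65 and, more weakly, WT 63 are mostly blue (lower), and those of WT 66 and WT 62 are mostly red (higher).

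The members moved together from library to library, and libraries of 1 group differed as much as the groups did. The median deviation of the 44 members from their gene means was -0.0093, -0.11 and 0.0034 on the log2 scale in 5xFAD 64, 65 and 79, and 0.056, -0.045 and 0.10 in WT 62, 63 and 66. WT 63 thus lay below 5xFAD 64 and 5xFAD 79, and the groups overlapped. The SD of these medians within groups was 0.067, beside a median log2 fold change of -0.076 between the groups. 5xFAD 65 was the lowest library for 29 members, or 65.9%, against 21.3% of all tested genes, and WT 63 for 7. WT 66 was the highest for 27 members, or 61.4%, against 18.6% of all tested genes, and WT 62 for 11. The 4 complexes kept the same order of libraries at both ends, with complex IV spanning from -0.13 in 5xFAD 65 to 0.13 in WT 66 and complex III from -0.069 in 5xFAD 65 to 0.071 in WT 66.

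**Figure D4:**
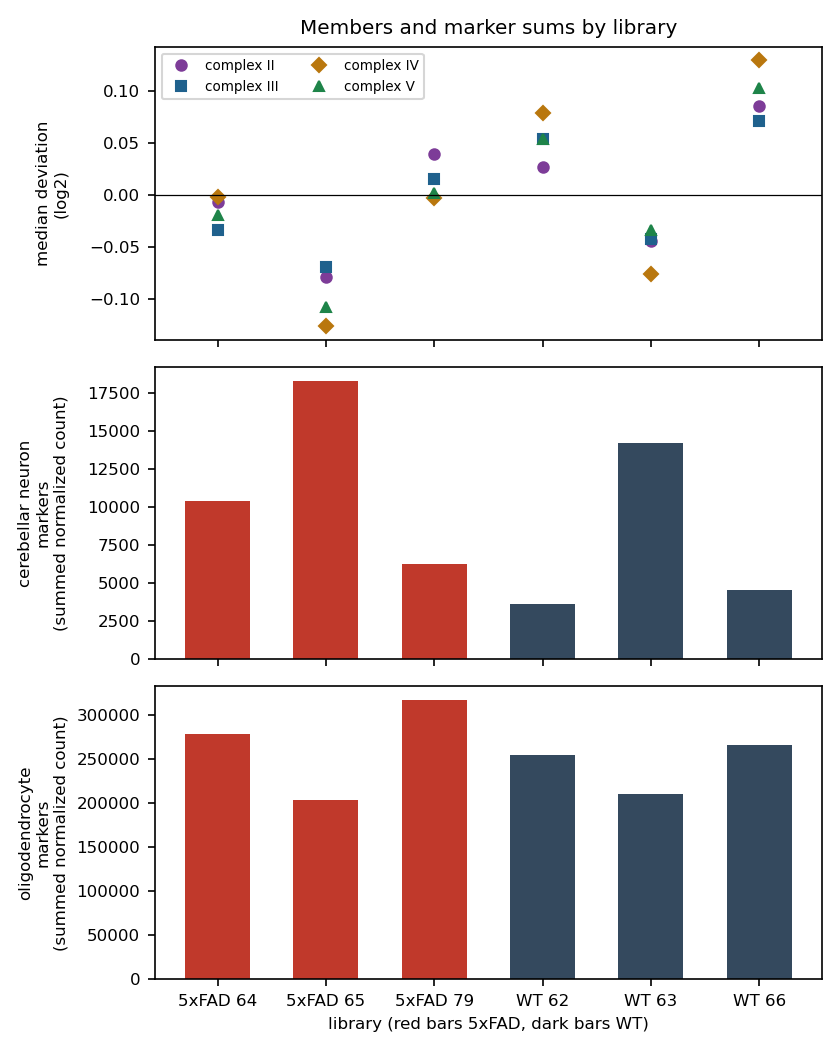
By library, 5xFAD (64, 65, 79) left of WT (62, 63, 66): the median deviation of the tested members of each complex from their gene means (top, log2), and the summed normalized counts of 8 cerebellar neuron markers (middle) and 7 oligodendrocyte markers (bottom). 5xFAD 65 and WT 63 have the lowest member medians in their group, the highest cerebellar sums (18329 and 14246) and the lowest oligodendrocyte sums (202916 and 210043).

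In 5xFAD 65 and WT 63 the members' values moved with tissue markers. These libraries, with the lowest members in their group, also had the highest cerebellar marker sums and the lowest oligodendrocyte sums. The sums of 9 noradrenergic markers were highest there too, at 15962 in 5xFAD 65 and 14496 in WT 63. The other WT libraries did not follow this: WT 66 lay above WT 62 both in cerebellar sum (4579 against 3620) and in the members' median deviation (0.10 against 0.056). All 8 cerebellar markers had fitted values above 0 in 5xFAD (median log2 fold change 0.93) and 1 was at an unadjusted p under 0.05; none was at 0 and none was called by limma. Gabra6, the receptor subunit that marks cerebellar granule cells, had 817, 1402 and 341 normalized counts in 5xFAD, against 48.3, 1079 and 70.4 in WT, a range that overlapped between the groups. Pan-neuronal and astrocyte sums were lowest in the same library of each group: 10 pan-neuronal markers summed to 163212, 146690 and 173967 in 5xFAD and 185857, 159369 and 177695 in WT, and 7 astrocyte markers to 76567, 75119 and 79341 in 5xFAD and 81647, 73305 and 82546 in WT. With a median log2 fold change of -0.066, 7 of the 10 pan-neuronal markers lay below 0. The part of these tissue differences in the members' values was not tested.

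The members were counted again without 5xFAD 65 and WT 63, a setting chosen after the data were seen, on libraries that are also the lowest of their group for the members. It does not even out the cerebellar markers: the remaining sums did not overlap, at 10399 and 6281 in 5xFAD against 3620 and 4579 in WT, and the log2 fold change of Gabra6 was 3.16, against 2.23 with all libraries. In this setting the median of the members was -0.077 with 39 of 44 below 0, and 7 were at an unadjusted p under 0.05, against 6.7% of all genes. These were Atp5c1, Atp5h, Atp5j, Atp5j2, Cox5a, Cox5b and Cox7b, with 0 called, the smallest adjusted p by limma at 0.40, and 0.0548% of all genes called.

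Leaving out single libraries moved the same counts. Without WT 63 the median was -0.11 and 9 members stood at an unadjusted p under 0.05 (6.03% of all genes), while limma called 0 members and 0.0% of all genes. Without 5xFAD 65 the median was -0.044 with 33 members below 0, and limma left 0 members at an unadjusted p under 0.05 (3.39% of all genes) and called 0 members (0.0122% of all genes). Without WT 66 the median was -0.043 with 34 below 0 and 0 at an unadjusted p under 0.05, against 1.77% of all genes. Without 5xFAD 79 there were 2, Atp5k and Cox7b, against 3.42% of all genes. Without WT 62 there was 1, Atp5k, against 1.82% of all genes, and without 5xFAD 64 there was 1, Cox7b, against 1.5% of all genes. The direction of the members' median was the same in each of these settings.

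No gene was called with all libraries among the partners of the nuclear subunits, in lists that were chosen with earlier results known. Of the 6 mitochondrially encoded subunits of complexes III to V, 5 had fitted values below 0 (median -0.076). mt-Co2, a catalytic subunit of complex IV with the first copper centre, had 6452, 7089 and 6069 normalized counts in 5xFAD, against 9776, 7379 and 8938 in WT. All 5xFAD libraries lay below all WT libraries, at a log2 fold change of -0.41 (SE 0.10). Its limma p was 0.0045 before and 0.9995 after adjustment. Without 5xFAD 65 and WT 63, a setting chosen after the data were seen, it was called at -0.58 (limma adjusted p = 0.0011). For mt-Co2 these are the highest 5xFAD and the lowest WT library. The larger difference follows from leaving them out, so that call adds no support.

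All 7 electron carriers and subunits without the prefixes had fitted values below 0 (median -0.088). Cycs, cytochrome c itself, had 4685, 4499.7 and 4858 normalized counts in 5xFAD, against 5291, 4732 and 4988 in WT (log2 fold change -0.095, SE 0.059), and Usmg5, a small subunit of complex V, had 1809.7, 1702 and 1887 normalized counts in 5xFAD, against 1879, 1934 and 1988 in WT (log2 fold change -0.10, SE 0.058); in both the groups overlapped. Among assembly factors, fitted values were below 0 for 3 of 4 of complex II (median -0.080), 3 of 6 of complex III (0.014), 17 of 25 of complex IV (-0.063) and 4 of 5 of complex V (-0.056). Those with the smallest p were Sdhaf4 (log2 fold change -0.18, SE 0.12), which protects the flavoprotein before assembly, and Bcs1l (0.14, SE 0.10), which inserts the Rieske protein into complex III. They also included Cox15 (-0.14, SE 0.079), which makes heme A, Higd1a (-0.11, SE 0.066), which binds complex IV, and Fmc1 (-0.24, SE 0.12), which helps form the ATP synthase head. Fmc1 had 176, 167 and 185 normalized counts in 5xFAD, against 226, 184 and 216 in WT, and 5xFAD 79 alone reached above WT 63.

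Of the regulators of mitochondrial biogenesis, 11 of 16 had fitted values above 0 (median 0.081), where 8232 of 16411 tested genes lay above 0. Their summed level was 12211, 10875 and 11614 in 5xFAD and 11808, 10675 and 12476 in WT, and overlapped between the groups. Ppargc1a, a coactivator of mitochondrial biogenesis, had 1503, 1386 and 1511 normalized counts in 5xFAD, against 1512, 1395 and 1748 in WT, at a log2 fold change of -0.076 (SE 0.083). Polrmt, the mitochondrial RNA polymerase, had 357, 344 and 337 normalized counts in 5xFAD, against 307, 268 and 306 in WT. Its 5xFAD libraries lay above all WT libraries, at a log2 fold change of 0.24 (SE 0.090). Its limma p was 0.026 before and 0.9995 after adjustment. Gabpb1, a subunit of the ETS-family factor GABP, had 356, 329.6 and 324 normalized counts in 5xFAD, against 293, 303 and 296 in WT, again without overlap, at a log2 fold change of 0.18 (SE 0.083). In all, 3 of the 16 regulators had every 5xFAD library above every WT library, beside 3.72% of all tested genes. For comparison, 36 of 38 tested nuclear subunits of complex I had fitted values below 0 (median -0.083), as did 66 of 82 cytosolic ribosomal protein genes (median -0.026). Every 5xFAD library lay below every WT library for 7 of the 38 and for 15 of the 82. The same held for 4 of the 44 members and 3.7% of all tested genes, so it was not particular to complexes II to V.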

How the data were processed

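Per the labels' protocols, TRIzol was used for the RNA of the punches and a TruSeq RNA kit with poly-A selection for the libraries. STAR, RSEM, DESeq2 and the build mm39 come from the submitters' processing notes; the sources used here give no roles, versions, annotation or counting strand. The deposited table is named for TPM, but its library columns hold the authors' signal, each gene's count over the size factor of its library: all values were whole multiples of 1 step (tolerance 0.001), and the steps matched median-of-ratios size factors. It also holds the authors' log2 fold change, which runs WT over 5xFAD by comparison with the columns and was turned here, a test score, and an unadjusted and adjusted p-value per gene. Symbols were matched by identifier without version, for 52073 identifiers (91.5%).

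Values were tested as log2(normalized count + 1) in R 4.3.3 by limma 3.58.1 (variance trend, robust moderation), adjusted by Benjamini-Hochberg over the 16411 genes with at least 10 in at least 3 libraries. This scale understates the fold changes of low genes. The model recovered 109 of 200 genes changed 1.5-fold when tested on simulated data of 16411 genes, each drawn separately. With 200 changed genes the adjusted threshold is easier to pass than in the real data, where 1 gene was called. The simulated share thus does not give the recovery for the members. edgeR 4.0.16 and DESeq2 1.42.0 were run on whole reads. Isoform ratios were compared with scipy 1.17.1, and figures drawn with matplotlib 3.10.9. The members, lists, naming rule and tests were chosen with earlier results of these data known. Values in every library are given, per complex, for the 4 members with the smallest p and the 3 with the highest mean, for isoform pairs, and for the members with the 3 largest values above and below 0. Those of Atp5d and Cox7b2 are given as well, outside this rule. Genes of other lists were named from the 2 with the smallest p in a list, though not all of these were named. Of them, Sdhaf4, Bcs1l, Cox15 and Higd1a are given by log2 fold change and SE only. Thy1, Dbh, Gabra6 and Ppargc1a were picked by name. Depth was 15158712 to 20079349 reads per library.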

Additional observations from a re-analysis of the deposited data

How the results depend on the processing

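Limma called 0 members in each of the settings run, and 33 to 41 of 44 had fitted values below 0 (39 of 40 with a floor of 50). The median log2 fold change ran from -0.11 to -0.043 when single libraries were left out: -0.073 to -0.0054 for complex II, -0.10 to -0.043 for complex III, -0.14 to -0.018 for complex IV and -0.11 to -0.039 for complex V. Members at an unadjusted p under 0.05 numbered 2 with quantile normalization, 0 without trend and robust moderation, 2 with edgeR, 7 without both 5xFAD 65 and WT 63 (a setting chosen after seeing the data), and 0 to 9 without single libraries. Of all genes, 0 were called without trend and robust moderation, 4 by DESeq2, 9 without both libraries and 0 to 2 without single libraries. Cox4i2 turned to -0.0014 with a pseudocount of 5, -0.00046 with TMM, -0.015 with edgeR, -0.018 with DESeq2 and -0.011 without both libraries, and Uqcrc1 to 0.015 with quantile normalization. Without both libraries Atp5g2 turned to 0.020, Sdhb to 0.0028, and the isoform ratios Cox7a1 to Cox7a2 to 0.015, Cox7a2l to Cox7a2 to -0.042 and Atp5g1 to Atp5g2 to -0.047. Leaving out single libraries gave ranges that cross 0 for Atp5g1 (-0.060 to 0.036), Atp5g2 (-0.075 to 0.048), Cox4i2 (-0.19 to 0.25), Cox7a1 (-0.55 to 0.072), Cox7a2 (-0.14 to 0.0023), Cox8a (-0.061 to 0.036), Sdhb (-0.043 to 0.033), Uqcr11 (-0.11 to 0.00044), Uqcrb (-0.048 to 0.0023), Uqcrc1 (-0.062 to 0.035), Dbh (-0.054 to 0.43) and Ppargc1a (-0.15 to 0.013). The same held for the ratios Cox4i2 to Cox4i1 (-0.069 to 0.28), Cox7a1 to Cox7a2 (-0.45 to 0.070), Cox7a2l to Cox7a2 (-0.045 to 0.050), Cox8b to Cox8a (-0.011 to 0.75) and Atp5g1 to Atp5g2 (-0.023 to 0.084). Without both libraries, which are its highest 5xFAD and its lowest WT library, mt-Co2 was called (limma adjusted p = 0.0011), and this adds no support. Where 1 or 2 libraries were left out, fewer samples entered the fit; the cause of the other shifts was not tested. No paired analysis was possible because the groups share no replicate numbers. With 3 libraries a group, the 95% intervals of all tested members but Cox7b include 0, and they cover these libraries only.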

Other observations

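Other cell markers, summed over each list, overlapped between the groups, and limma called none of their genes. The 9 noradrenergic markers summed to 11284, 15962 and 12134 normalized counts in 5xFAD and to 12822, 14496 and 8063 in WT, with 8 of 9 fitted values above 0 (median log2 fold change 0.20). A list of inhibitory and fast-spiking neuron markers held Pvalb, Kcnc1, Kcnc2, Gad1, Gad2, Slc32a1 and Syt2, and is not limited to fast-spiking interneurons. Of these, 5 of 7 were below 0 (median -0.076). Fitted values were below 0 for 4 of 7 astrocyte (median -0.032), 1 of 7 microglial (0.054), 2 of 6 endothelial (0.023) and 0 of 7 mural markers (0.12). Of 4 brown-fat markers 2 were tested, and only Elovl3 was at 0 in all libraries. Of 8 striated muscle markers, 1 reached the expression floor.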
